A study of Homo sapiens with 6 samples.

Results

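The 7SL, 7SK, RNase P and MRP RNAs are short noncoding RNAs without a poly(A) tail, each the RNA core of a particle made with proteins. The set holds 7 genes of the 60612 in the deposited table: RN7SL1, RN7SL2, RN7SL3 and RN7SL4P for 7SL, RN7SK for 7SK, RPPH1 for RNase P and RMRP for RNase MRP. They were chosen by name because their levels differed between the same 6 samples described here, so their levels and differences are given as a description, with no test, and support nothing further. All 7 were among the 12000 genes with a mean FPKM (fragments per kilobase, relative to library size) of at least 1 over the 6 samples, the minimum for a test. In RN7SL3, RN7SL4P, RPPH1 and RMRP the si NC mean was under 1, so these 4 passed only through their level with PLOD3 siRNA. RMRP has 2 entries in the table, and the one with reads was used.

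RNA was sequenced from HCT116, an established human colorectal cancer cell line. In 3 samples the cells had received the control siRNA named si NC and in 3 an siRNA against PLOD3, which encodes a lysyl hydroxylase of collagen, each for 2 days. A Ribo-Zero kit removed ribosomal RNA before sequencing, per the labels' protocols. The labels name no other agent or allele and do not say how many siRNA sequences were used. Separate cultures are not stated for the replicates, so their spread, and every p-value, may be technical.

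7SL is the scaffold of the signal recognition particle (SRP), which binds signal sequences leaving the ribosome and brings the ribosome to the endoplasmic reticulum. 7SK holds the kinase P-TEFb inactive and so limits the release of paused RNA polymerase II, RNase P removes the leader of tRNA precursors, and RNase MRP cuts the precursor of ribosomal RNA. RNA polymerase III transcribes all of them in human cells.

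The first 100 bases of 7SK and of the RNase P and MRP RNAs are shown to identify them, 5′ to 3′, from the GENCODE release 29 transcripts. Capitals mark GATC, the DNA spelling of a short repeat in the 5′ hairpin of 7SK that the P-TEFb inhibitor HEXIM1 is known to bind.

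RN7SK: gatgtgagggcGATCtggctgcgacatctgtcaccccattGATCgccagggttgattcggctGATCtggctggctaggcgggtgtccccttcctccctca

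RPPH1: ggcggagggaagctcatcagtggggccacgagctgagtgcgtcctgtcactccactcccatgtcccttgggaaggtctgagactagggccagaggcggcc

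RMRP: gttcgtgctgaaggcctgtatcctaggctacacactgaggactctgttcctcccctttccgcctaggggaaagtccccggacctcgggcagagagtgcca

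On GRCh38, RN7SK lies at chr6:52995621-52995948 on the plus strand, RPPH1 at chr14:20343075-20343407 on the minus strand and RMRP at chr9:35657754-35658017 on the minus strand. RN7SK holds GATC 3 times, all in the stretch shown, and the other 2 stretches hold none. GATC reads the same on both strands. At least 1 GATC was in the first 100 bases of 22.4% of 203677 annotated transcripts, and 3 or more in 0.286%. All 215 stretches of 50 bases in RMRP were found in no gene of another name. For RN7SK and RPPH1 every such stretch also lies in another annotated gene over the same place, and those entries had a count of 0 in all 6 samples. RN7SK also shared stretches with genes elsewhere, among them RN7SKP71 (34.4% of the RN7SK stretches), RN7SKP203 (33.7%) and PLCG2 (14.3%). The division of reads is therefore uncertain for RN7SK too.

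How alike the 4 copies of 7SL are bears on how reads can be divided among them. RN7SL1 lies at chr14:49586580-49586878 on the plus strand, within the span of RPS29 on the other strand. RN7SL3 (chr14:49853616-49853914) and RN7SL2 (chr14:49862550-49862849) lie close together on the minus strand of the same chromosome. RN7SL4P, annotated by its name as a pseudogene, lies at chr3:15738515-15738809 on the plus strand within ANKRD28, which runs the other way. In global alignments of the annotated transcripts, RN7SL2 matched RN7SL1 at 98.3% of aligned positions, RN7SL3 at 97.7% and RN7SL4P at 86.1%. The longest run shared by RN7SL1 and RN7SL2 was 205 bases. In RN7SL4P, 30 of the 35 bases that differ from RN7SL1 fall in bases 201 to 295, so its first 200 bases are nearly those of RN7SL1.

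Cut into all stretches of 50 bases, RN7SL1 shared 67.2% of its stretches with at least 1 of the other 3 copies, RN7SL2 86.5%, RN7SL3 34.4% and RN7SL4P 58.1%. Every stretch of RN7SL1 also lies in AL139099.4, an annotated gene not analysed here. The level of each copy is therefore uncertain, and their sum is given beside them.

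Total estimated counts ran from 55416555 to 76802428 per sample. Correlations of log2 counts scaled to library size were 0.961 to 0.971 within groups and 0.935 to 0.951 between them. PLOD3 itself had an FPKM of 6.40, 7.16 and 6.22 in si NC and 3.44, 3.40 and 4.05 with PLOD3 siRNA, so all 3 were below si NC, at -0.85 on the log2 scale (edgeR adjusted p = 0.0035). Over all 12000 genes tested, 35.5% were called at an adjusted p under 0.05, 16.2% higher and 19.3% lower with PLOD3 siRNA. The epithelial markers CDH1, EPCAM, KRT8, KRT18 and CLDN4 were all present, as the cell type label implies, with a summed FPKM of 420 to 466 in si NC and 340 to 410 with PLOD3 siRNA. KRT18 fell by 0.46 (log2, edgeR adjusted p = 0.00861; 0.0527 after GC correction), and CDH1 was at -0.76 (edgeR adjusted p = 0.0287; 0.0744 to 0.0871 without si NC 1, si NC 3, PLOD3 siRNA 1 or PLOD3 siRNA 2). Summed FPKM of fibroblast markers was 2.62 to 2.69 against 1.45 to 1.91, of leukocyte markers 0.318 to 0.618 against 0.0658 to 0.326, and of endothelial markers 0.0785 to 0.221 against 0.0795 to 0.119. Among these, 2 of 6 fibroblast, 2 of 5 leukocyte and 1 of 4 endothelial genes were at 0 in every sample (DCN, LUM, PTPRC, CD3E and CDH5). COL1A1 fell by 0.50 (log2, edgeR adjusted p = 0.0158; 0.219 after GC correction). The part of these markers in the results was not tested. In bulk RNA, more of an RNA per cell and more cells holding it cannot be told apart.

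RN7SL1 had an FPKM of 4.68, 2.81 and 2.47 in si NC 1 to 3 and of 81.7, 89.3 and 65.2 in PLOD3 siRNA 1 to 3. RN7SL2 had 1.39, 2.34 and 2.31 in si NC and 100.1, 105.5 and 84.5 with PLOD3 siRNA. Every PLOD3 siRNA sample lay far above every si NC sample for both genes. Means ± SD (n = 3) were 3.32 ± 1.19 and 78.7 ± 12.4 for RN7SL1 and 2.01 ± 0.538 and 96.7 ± 10.9 for RN7SL2. The fitted log2 fold change was 4.57 for RN7SL1 and 5.57 for RN7SL2.

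The copies with lower levels showed the same separation. RN7SL3 had an FPKM of 0.189, 0 and 0.280 in si NC and 4.55, 6.14 and 3.33 with PLOD3 siRNA, a log2 fold change of 4.76. RN7SL4P had 0.414, 0.459 and 0.285 in si NC and 15.7, 19.4 and 9.32 with PLOD3 siRNA, a log2 fold change of 5.17. RN7SL3 had the lowest FPKM of the 4 copies in all 6 samples, though in si NC 3 its count of 8 equalled that of RN7SL4P. With PLOD3 siRNA, all 4 copies were highest in replicate 2 and lowest in replicate 3 on the FPKM scale.

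RN7SK had an FPKM of 0.856, 1.18 and 1.38 in si NC and 15.4, 15.8 and 13.5 with PLOD3 siRNA, with means of 1.14 ± 0.266 and 14.9 ± 1.27 (SD, n = 3). Its log2 fold change of 3.69 was the smallest of the 7. Its coefficient of variation between the PLOD3 siRNA samples, 8.54%, was also the smallest of the 7.

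RPPH1, the catalytic RNA of RNase P, had an FPKM of 0.633, 0 and 0.748 in si NC and 7.29, 11.1 and 9.20 with PLOD3 siRNA, a log2 fold change of 4.25. RMRP, the RNA of RNase MRP, had 0.428, 0.186 and 0.318 in si NC and 6.20, 3.42 and 4.77 with PLOD3 siRNA, a log2 fold change of 3.86. The groups did not overlap for either RNA. Their order among the PLOD3 siRNA samples differed: RPPH1 was highest in replicate 2 and lowest in replicate 1, RMRP highest in replicate 1 and lowest in replicate 2.

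**Figure D1:**
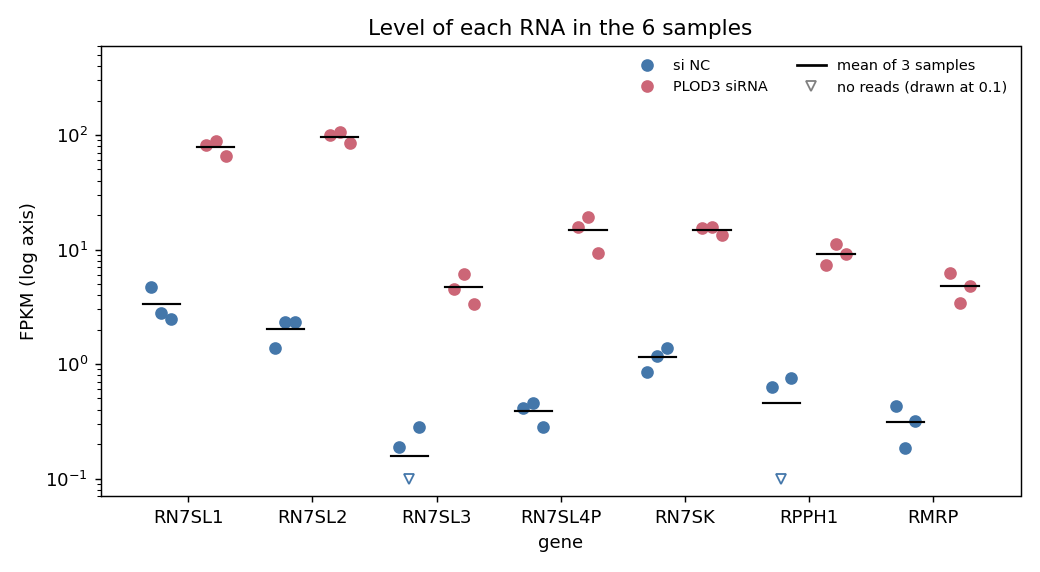
FPKM of each of the 7 RNAs (log axis) in 3 si NC and 3 PLOD3 siRNA samples, with a bar at each mean and an open triangle, drawn at 0.1, where there were no reads. For every RNA all PLOD3 siRNA points lie above all si NC points; RN7SL2 goes from 1.39-2.34 to 84.5-105.5.

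The si NC levels rest on few reads. Estimated counts in si NC 1 to 3 were 94, 65 and 67 for RN7SL1, 28, 54 and 62 for RN7SL2, 19, 30 and 41 for RN7SK, and 23 or fewer per sample for the other 4. The corresponding counts with PLOD3 siRNA were 2071, 1749 and 1256 for RN7SL1, 2546, 2072 and 1635 for RN7SL2, and 430, 341 and 285 for RN7SK. Low counts peaked at 4 (in si NC 1, 1463 genes at 4 against 537 at 3 and 308 at 5), so 4 units were taken as 1 sequenced fragment when counting error was worked out.

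On that basis RN7SL2 had 36 fragments in all of si NC and 1563 with PLOD3 siRNA, a ratio of rates per total count of 47.4 (exact 95% interval 34.1 to 68.0). RN7SL1 had 56 and 1269 fragments, a ratio of 24.8 (18.9 to 33.0). RN7SK had 22 and 264, a ratio of 13.1 (8.48 to 21.3). The sharing of reads between copies is not part of these intervals.

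The rarer RNAs have wide intervals. RN7SL4P had 7 and 237 fragments, a ratio of 37.0 (17.7 to 93.0). RPPH1 had 10 and 162, a ratio of 17.7 (9.38 to 37.6). RMRP had 5 and 70, a ratio of 15.3 (6.25 to 48.6), and RN7SL3 had 3 and 76, a ratio of 27.7 (9.12 to 137). These intervals cover counting error only, not the spread between samples.

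Leaving out 1 library at a time, the log2 fold change ranged from 3.68 without si NC 2 to 4.84 without si NC 3 for RPPH1, and from 4.21 to 5.58 without the same libraries for RN7SL3. Neither RNA had a read in si NC 2. RN7SL2 ranged from 5.36 to 5.70, RN7SK from 3.51 to 3.86 and RMRP from 3.62 to 4.11.

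Against the other genes tested, the si NC mean FPKM of RN7SL2 stood above 18.5% of genes and its PLOD3 siRNA mean above 97.2%. For RN7SK these shares were 3.67% and 80.7%, and for RMRP 0.108% and 48.7%. RMRP is among the genes tested only through its level with PLOD3 siRNA, so its low share in si NC follows from the filter. By mean FPKM, which is per length, the order in si NC was RN7SL1, RN7SL2, RN7SK, RPPH1, RN7SL4P, RMRP and RN7SL3. With PLOD3 siRNA it was RN7SL2, RN7SL1, RN7SK, RN7SL4P, RPPH1, RMRP and RN7SL3. The sample ranges overlapped for RN7SL2 and RN7SL1, for RN7SK and RN7SL4P, for RN7SL4P and RPPH1, and for RMRP and RN7SL3 with PLOD3 siRNA, so those neighbours in the order are not told apart by their spread. In si NC the ranges overlapped for RPPH1 and RN7SL4P, RN7SL4P and RMRP, and RMRP and RN7SL3. By FPKM, RN7SL2 was above RN7SL1 in each of the 3 PLOD3 siRNA samples and below it in each of the 3 si NC samples. The counts of RN7SL2 and RN7SL1 were close in si NC 2 (54 against 65) and si NC 3 (62 against 67). The division of reads between these copies is uncertain, so their order is too.

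The share of the 7SL count assigned to RN7SL1 varied more between the si NC samples than between the PLOD3 siRNA samples. RN7SL1 took 69.6%, 50% and 46.2% of the 7SL count in si NC 1 to 3 and 40.4%, 40.5% and 40.1% in PLOD3 siRNA 1 to 3. The count of RN7SL2 divided by that of RN7SL1 was 0.298, 0.831 and 0.925 in si NC and 1.23, 1.18 and 1.302 with PLOD3 siRNA, so the groups did not overlap. The si NC shares rest on 130 to 145 units of count in all, the PLOD3 siRNA shares on 3134 to 5127. RN7SL4P took 5.52% to 8.46% in si NC and 5.68% to 8.69% with PLOD3 siRNA, which overlap.

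**Figure D2:**
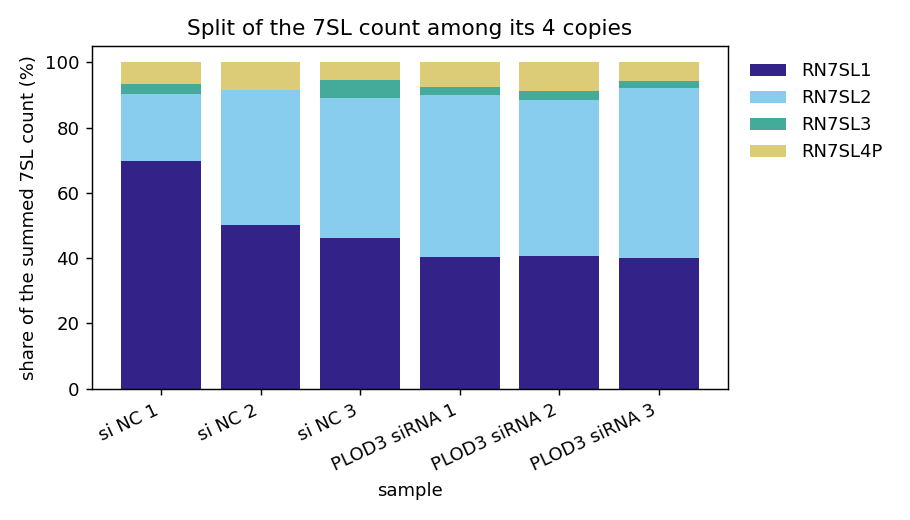
Share of the summed 7SL count (%) assigned to each of the 4 copies, 1 bar per sample. RN7SL1 takes 46.2% to 69.6% in the si NC bars and 40.1% to 40.5% in the PLOD3 siRNA bars.

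Summed over its copies, 7SL had an FPKM of 6.68, 5.61 and 5.34 in si NC and 202, 220 and 162 with PLOD3 siRNA. All 7 RNAs together made up 0.000251% to 0.000308% of the total count in si NC and 0.00666% to 0.00895% with PLOD3 siRNA, a very small part of either library. RN7SK divided by summed 7SL, both in FPKM, was 0.128 to 0.259 in si NC and 0.0719 to 0.0830 with PLOD3 siRNA, so the 2 groups of ratios did not overlap.

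All 7 had every PLOD3 siRNA FPKM above every si NC FPKM. So did 24.6% of the 12000 genes tested, and as these differences chose the RNAs, the count is no result. A log2 fold change of at least 3.5 was found for 23 genes, 0.192% of those tested. Of these, 7 were the RNAs described here, 6 were on chromosome 21 and 10 were elsewhere. The cut-off of 3.5 lies under the smallest fold change of the 7 RNAs, so that all 7 pass it is no result either. The least different RNA, RN7SK at 3.69, was followed by FP236383 on chromosome 21 at 3.58.

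The 5 genes outside the set with the most similar profile over the 6 samples, by root mean square distance from the median of the 7 RNAs (log2 counts scaled to library size, less each gene's si NC mean), were all on chromosome 21. They were FP236383 at 0.688, 2 entries named FP671120 at 0.708 and 0.730, and the 5.8S ribosomal RNA copies RNA5-8SN3 at 0.727 and RNA5-8SN2 at 0.759. Members of the set lay 0.257 (RN7SL1) to 0.976 (RPPH1) from that median. FP236383 had an FPKM of 250, 187 and 193 in si NC and 2384, 2829 and 2251 with PLOD3 siRNA, with replicate 2 highest and replicate 3 lowest, as in the 7SL copies.

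**Figure D3:**
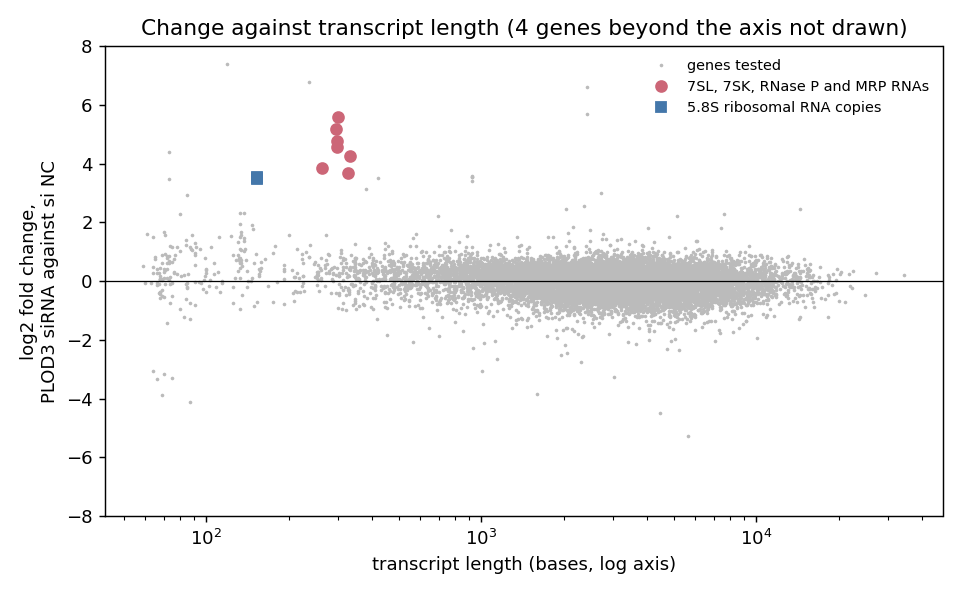
Fitted log2 fold change (PLOD3 siRNA against si NC) against transcript length (log axis) for 11968 tested genes with an annotated length, less 4 beyond the axis. The 7 RNAs sit between 3.69 and 5.57 at lengths of 264 to 333 bases, above nearly all genes of like length; the 5.8S copies named RNA5-8SN1 to RNA5-8SN3 sit near 3.51.

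The RNAs are 264 to 333 bases long, and the median fold change of the tested genes was higher in shorter length classes. The median log2 fold change was 0.36 for 190 genes under 200 bases, 0.27 for 187 genes of 200 to 400 bases without the 7 RNAs, 0.21 for 966 genes of 400 to 1000 bases, 0.06 for 2111 genes of 1000 to 2000 bases and -0.04 for 8507 longer genes. Of the 187 genes of like length, 19 were called higher (10.2%, against 16.2% of all genes) and 3 lower (1.60%, against 19.3%). The fold changes of the 7 RNAs lie far above that median, but those differences chose the RNAs, so their place above it is no result. Whether length or recovery of short RNA plays a part was not tested.

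Relatives of these RNAs were measured in the same samples. Of 676 annotated 7SL pseudogenes, 162 had reads and 0 reached the minimum for a test. Their summed FPKM was 12.1 to 13.6 in si NC and 21.8 to 23.7 with PLOD3 siRNA. Reads were seen only with PLOD3 siRNA for 69 of them and only in si NC for 22. The share of all genes with reads in either group alone is not given here. Some of these pseudogenes share stretches with the 7SL copies, as RN7SL5P does with 64.0% of the RN7SL1 stretches. The division of reads between them is uncertain, so these values do not show the level of the pseudogenes apart from the copies. Of 293 7SK pseudogenes, 49 had reads, with a summed FPKM of 4.07 to 6.82 and 5.99 to 8.42, ranges that overlap, and 13 had reads in each group alone. Only RN7SKP173 of these was tested, at 0.48 (edgeR adjusted p = 0.314).

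Other short RNAs were mostly too low to test. Among 15 other RNA polymerase III RNAs (U6, Y and vault RNAs, BCYRN1), 8 had reads and 2 were tested. BCYRN1, a neuronal RNA derived from an Alu element, had an FPKM of 1.17, 0.795 and 0.449 in si NC. With PLOD3 siRNA it had 1.68, 2.53 and 3.20. Every PLOD3 siRNA sample was higher, as for 24.6% of all genes tested. The log2 fold change was 1.58 ± 0.424 (SE, edgeR adjusted p = 0.0298). The si NC mean of BCYRN1 was under 1, so it passed the minimum for a test only through its level with PLOD3 siRNA. It lost the call without si NC 2, si NC 3, PLOD3 siRNA 2 or PLOD3 siRNA 3 (adjusted p = 0.074 to 0.0773). RNU6-8 was at 0.23 (edgeR adjusted p = 0.706).

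Of 21 short RNAs made by RNA polymerase II, 18 had reads and only SNORD3A, the U3 RNA of ribosomal RNA processing, was tested. It was at 1.18 ± 0.262 on the log2 scale (SE, edgeR adjusted p = 0.0163). The summed FPKM of all 21 was only 0.720 to 3.41 in si NC and 5.12 to 9.06 with PLOD3 siRNA. SNORD3A may therefore have passed the minimum for a test only through its level with PLOD3 siRNA, and its call supports nothing further. The 3 copies of 5.8S ribosomal RNA named RNA5-8SN1 to RNA5-8SN3 rose, where 16.2% of all genes rose, with a median of 3.51. A further 5.8S entry, 5_8S_rRNA, was at 3.52 (log2, edgeR adjusted p = 0.000459). Of 520 5S genes and pseudogenes 69 had reads, and only RNA5SP202 was tested. It had no reads in si NC and an FPKM of 0.537, 2.79 and 3.67 with PLOD3 siRNA (edgeR adjusted p = 0.0278). RNA5SP202 reached the minimum for a test only through its level with PLOD3 siRNA, so its call supports nothing further. Its call was lost without si NC 2, si NC 3, PLOD3 siRNA 2 or PLOD3 siRNA 3 (adjusted p = 0.0544 to 0.084). Replication-dependent histones, whose mRNAs also lack a poly(A) tail, had 11 of 66 tested. By edgeR 0 were called higher (1 at an unadjusted p under 0.05, 0 by DESeq2, 1 by limma), where 16.2% of all genes were. By edgeR 1 was called lower, where 19.3% of all genes were. This was H3C6, which fell by 1.10 (log2, edgeR adjusted p = 0.00334). The median of the 11 histone genes was 0.27. H3C6 moved against the direction of the 7 RNAs.

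**Figure D4:**
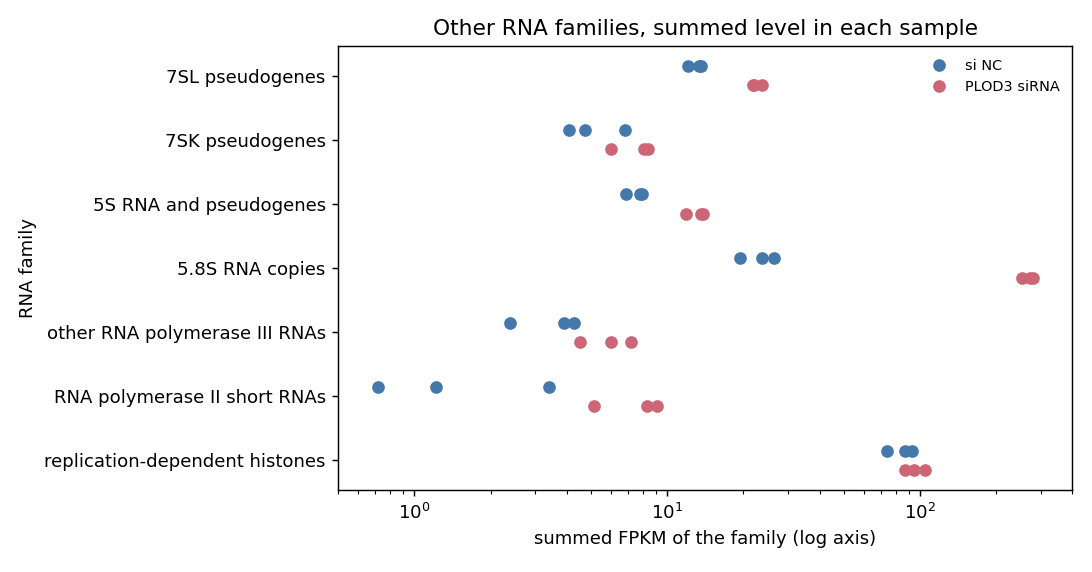
Summed FPKM (log axis) of 7 RNA families in each of the 6 samples. The 5.8S copies separate most, 19.4 to 26.45 in si NC and 252 to 280 with PLOD3 siRNA; 7SK pseudogenes and histones overlap between the groups.

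The proteins that build particles with these RNAs had much smaller fold changes than the RNAs. For SRP and its receptor, 4 of 8 genes rose, where 16.2% of all genes tested rose, and the median was 0.29 against 0.00 over all genes. By edgeR 0 of the 8 fell (1 at an unadjusted p under 0.05; 0 by DESeq2 and 0 by limma), where 19.3% of all genes fell. SRPRB, a subunit of the SRP receptor, rose by 0.58 ± 0.0975 (log2, SE; edgeR adjusted p = 0.00732) and kept its call in all 15 alternative fits. SRP54, which binds the signal sequence, at 0.29, SRP72 at 0.50 and SRP19 at 0.43 lost their call after GC correction (adjusted p = 0.443, 0.138 and 0.143), where 1 of 8 was called higher. Without PLOD3 siRNA 1, 1 of 8 was called higher; without si NC 1, si NC 2, PLOD3 siRNA 2 or PLOD3 siRNA 3, 2 were. SRP9, named after its values were seen, had 59.3, 51.9 and 14.9 FPKM in the si NC samples and 21.6, 22.3 and 19.2 with PLOD3 siRNA. It was not called, and si NC 3 lay below the PLOD3 siRNA samples; without si NC 3, 1 of the 8 genes was called lower.

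For the proteins of the 7SK particle and P-TEFb, 1 of 7 rose and 1 fell, with a median of 0.04; these counts are near the shares over all genes, 16.2% and 19.3%. CDK9, the kinase of P-TEFb, fell by 0.60 (log2, SE 0.0624; edgeR adjusted p = 0.00255), with an FPKM of 23.8, 23.3 and 23.3 in si NC and 16.0, 14.3 and 16.1 with PLOD3 siRNA, in all 15 alternative fits. CCNT1, its cyclin partner, was at 0.30 (edgeR adjusted p = 0.0457) and lost the call in 10 of 15 alternatives. HEXIM1, the inhibitor, at 0.04, MEPCE, the capping enzyme, at -0.14 and LARP7, which binds the 3′ end, at 0.33 were not called.

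For the proteins of RNase P and MRP, 4 of 11 rose and 1 fell, where 16.2% of all genes rose and 19.3% fell, with a median of 0.40. RPP30 rose by 0.48 (log2, SE 0.0756; edgeR adjusted p = 0.00597; 0.0675 after GC correction), POP1 by 0.53 and RPP40 by 0.53, while RPP25 fell by 0.57. RPP40 and RPP25 lost their call after GC correction (adjusted p = 0.0802 and 0.232). Without si NC 3 or without PLOD3 siRNA 2, 1 gene was called higher; without PLOD3 siRNA 1 or PLOD3 siRNA 3, 2 were. POP1 lost its call without si NC 3, PLOD3 siRNA 1 or PLOD3 siRNA 2 (edgeR adjusted p = 0.0506 to 0.0582). RPP25 lost its call without si NC 1, si NC 2 or PLOD3 siRNA 1.

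Of the 13 subunits of RNA polymerase III, 6 rose, where 16.2% of all genes rose, with a median of 0.26; 1 subunit is not reported here. POLR3G rose by 0.79 ± 0.123 (log2, SE; edgeR adjusted p = 0.00573). POLR3B at 0.47 and POLR1C at 0.38, both called higher, lost the call without si NC 3 or PLOD3 siRNA 1, and in each of those fits 2 subunits were called higher. Of 19 initiation factors, 6 rose and 2 fell, where 16.2% of all genes rose and 19.3% fell, with a median of 0.08. Among them, GTF3C6 rose by 0.63, GTF3C3 by 0.55 and BRF2 by 0.47, and GTF3C1, the largest subunit of TFIIIC, fell by 0.55. Without PLOD3 siRNA 1, 2 factors were called higher; without si NC 2 or PLOD3 siRNA 2, 4 were. GTF3C3 was at an adjusted p of 0.052 after GC correction. MAF1, the repressor of RNA polymerase III, was at -0.10 and not called.

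Of 10 proteins that process the ends of short RNAs or degrade them, 6 rose, where 16.2% of all genes rose, with a median of 0.43. Against 19.3% of all genes, 0 fell by edgeR (0 at an unadjusted p under 0.05, by DESeq2 and by limma). Without si NC 3, 1 was called lower. SSB, the La protein that binds new RNA polymerase III transcripts, rose by 0.75 ± 0.0872 (log2, SE; edgeR adjusted p = 0.00293). MTREX, the helicase of the nuclear exosome, rose by 0.67, TOE1, a 3′ end exonuclease, by 0.56 and EXOSC10, an exosome nuclease, by 0.32. These 4 kept their call in all 15 alternative fits.

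**Figure D5:**
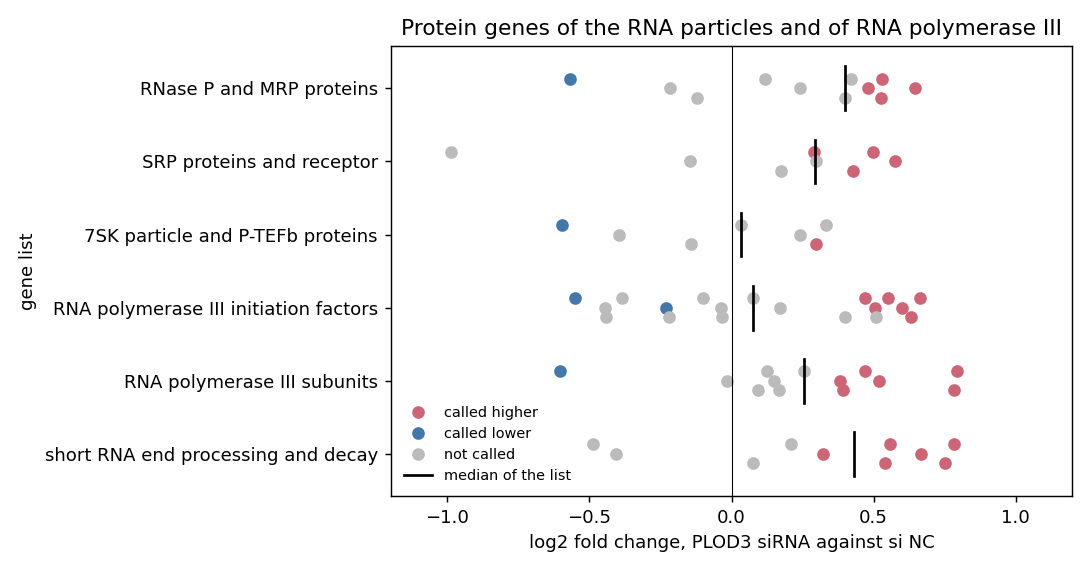
Log2 fold change of each tested protein gene in 6 lists, with a bar at the list's median and colour for the call. The highest gene is POLR3G at 0.79 and the lowest SRP9 at -0.99; the medians run from 0.04 (7SK and P-TEFb) to 0.43 (end processing and decay).

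Genes within 10 kb of the 7 RNAs had small fold changes. Of 9 tested, 2 were called higher, near the 16.2% over all genes: NEMF beside RN7SL2 and RN7SL3 at 0.50 (edgeR adjusted p = 0.00908; 0.058 after GC correction) and PARP2 beside RPPH1 at 0.38 (edgeR adjusted p = 0.0067). PARP2 lies 175 bases from RPPH1 on the other strand and had a mean FPKM of 9.12 ± 0.305 and 11.8 ± 0.169 (SD, n = 3). RPS29, which spans RN7SL1 on the other strand, was at 0.50 (edgeR adjusted p = 0.0746), and ANKRD28, which spans RN7SL4P, at 0.23 (edgeR adjusted p = 0.298). CCNB1IP1 near RPPH1 was at 0.27, ARHGEF39 at 0.21 and CCDC107 at 0.27 beside RMRP, CILK1 near RN7SK at 0.00 and RPL32P29 near RN7SL1 at -0.96, none called. The strand setting of the counting is not given in the sources used here, so reads of RN7SL1 or RN7SL4P and of the genes around them cannot be told apart by strand. Without PLOD3 siRNA 3, 4 of the 9 were called higher.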

How the data were processed

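RNA from 6 HCT116 samples, 3 with si NC and 3 with PLOD3 siRNA, was depleted of ribosomal RNA and sequenced, per the labels' protocols. Tools listed in the submitters' processing notes are HISAT2 2.0.4, StringTie 1.3.4d and cutadapt 1.9; for build, annotation and strand setting, nothing was found (not given in the sources used here). The authors deposited 1 table with an FPKM and an estimated count per gene and sample, per the file headers; FPKM is scaled to length and library size, with no further scaling between samples stated. Total estimated counts, deposited as whole numbers, ran from 55416555 to 76802428 per sample. Samples were grouped by title.

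The 12000 genes whose mean FPKM reached 1 were fitted with edgeR 4.0.16 (TMM, quasi-likelihood, Benjamini-Hochberg over all of them, threshold 0.05; R 4.3.3), first tested on simulated data. An FPKM written beside a count of 0 was set to 0. Members and lists were chosen with earlier results of these data known. In each list the called genes are named, or the 4 with the smallest p where more than 4 were called, with all neighbours and the 5 nearest profiles; others are named as examples. Alternatives were DESeq2 1.42.0, upper quartile scaling, no low filter, a mean FPKM of 5, counts divided by 4, limma 3.58.1 on log2(FPKM + 1) and log2(FPKM + 0.1), a loess correction for GC content (11968 genes), the replicate number as a block, and leaving out each library. Sequences and coordinates are from GENCODE release 29 on GRCh38, in which 96.3% of the table's gene IDs were found, aligned with Biopython 1.88. Exact intervals at 95% cover counting error only. The 7SL sequences and 1 gene of the polymerase subunit list are not reported here.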

Additional observations from a re-analysis of the deposited data

How the results depend on the processing

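All 7 RNAs stayed higher with PLOD3 siRNA in every alternative fit that held them; RN7SL3, RPPH1 and RMRP fall below a mean FPKM of 5. Their median log2 fold change of 4.57 was 2.90 with limma on log2(FPKM + 1), a pseudocount above the si NC mean of 4 of the 7, and 4.21 to 4.86 with 1 library left out. Among the called genes named from the lists, the tested neighbours and PLOD3, no direction turned where the main fit or the alternative called the gene. Turns of genes called in neither fit were not counted.

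With a mean FPKM of at least 5, 1192 genes were called higher and 1354 lower, of 6095 tested; SRP proteins had 1 lower, the 7SK proteins 0 higher, and other RNA polymerase III RNAs, RNA polymerase II short RNAs and 5S RNAs 0 higher and histones 0 lower. After GC correction SRP proteins had 1 higher, the RNase P list 0 lower, the 7SK list 0 higher, the initiation factors 1 lower, histones 1 higher and the neighbours 1 higher, and genes of 1000 to 2000 bases had a median of 0.16. Without a filter SRP proteins had 2 higher, the 7SK list 0 higher, initiation factors 1 lower, other RNA polymerase III RNAs 0 higher, 7SL pseudogenes 3 higher, 7SK pseudogenes 1 higher, histones 1 higher, and genes under 200 bases a median of 0.30. The limma fits called 0 of the 7SK list higher; with log2(FPKM + 1), histones had 1 higher and genes under 200 bases a median of 0.26. DESeq2 and upper quartile scaling called 2 of the 7SK list higher; on simulated data DESeq2 made more false calls than its threshold allows.

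The replicate numbers did not pair the samples: deviations of same-numbered samples correlated at 0.049, -0.011 and -0.023, and the samples did not all correlate best with their own number. With the replicate block, 1471 genes were called higher and 1834 lower; RNase P proteins had 2 higher and 0 lower, SRP proteins 2 higher, initiation factors 1 lower, and other RNA polymerase III RNAs and 5S RNAs 0 higher.

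With 1 library left out, 1083 to 1651 genes were called higher and 1509 to 2011 lower, fewest without PLOD3 siRNA 1 and without si NC 3. Calls then ranged from 1 to 4 higher and 0 to 1 lower for RNase P proteins, 1 to 3 higher and 0 to 1 lower for SRP, 0 to 1 higher for the 7SK list, 2 to 5 higher and 1 to 2 lower for initiation factors, 2 to 6 higher for polymerase subunits, 0 to 1 lower for end processing, 0 to 1 higher for other RNA polymerase III RNAs, 5S RNAs and histones, and 2 to 4 higher for neighbours. The median under 200 bases was 0.31 to 0.42. The cause was not tested for any of these. Depth limits the si NC levels: RN7SL3, RPPH1 and RMRP rest on 3, 10 and 5 fragments over 3 samples.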
